A study of Bos taurus with 50 samples.

Results

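Endometrial mRNA was compared at week 9 postpartum between cows that had been cycling without progesterone (P4) influence at week 5 (CycNoP4) and all other cows biopsied at week 9. The CycNoP4 group was taken from the cyclicity label alone and held 3 of the 24 week 9 libraries, out of 50 libraries in the series. The other 21 libraries came from 10 cows that were cycling under P4 at week 5 (CycW5) and 11 that were not cycling at week 5 (NoCycW5). The cows were first-lactation Holstein x Jersey animals of one farm, and the group names describe the ovary at week 5, not at week 9. Before the week 9 biopsy all groups alike had received the same synchronisation of the oestrous cycle with GnRH, an intravaginal P4 insert and prostaglandin F2α, and the biopsy was timed to the luteal phase. Each library is whole endometrial tissue. The ovaries set which uterine horn was biopsied, a corpus luteum taking precedence over the largest follicle. In such bulk tissue, fewer cells of a type and less RNA per cell cannot be told apart. The labels link no library to a cow, so the CycNoP4 libraries of week 9 were not matched to the 4 CycNoP4 libraries of week 5. The group is small and was set aside in the study's own cyclicity comparisons.

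P4 from the corpus luteum drives the endometrium into its secretory state during the luteal phase. Prolonged P4 reduces P4 receptor in the epithelium, and the later return of oestrogen and oxytocin receptors allows oxytocin to trigger the prostaglandin F2α pulses that end the cycle. The oxytocin receptor gene OXTR is therefore low in mid-luteal endometrium and high around oestrus, whereas genes such as MEP1B, HPGD and DGAT2 are high when P4 acts.

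The CycNoP4 libraries held 28786124 (library 79), 23545412 (library 88) and 32264351 (library 94) reads counted on genes, and the other libraries 21592867 to 32453713 with a median of 27380291. The mean total was 28198629 reads in CycNoP4 and 27365592 reads in the others (exact permutation test over the 2024 arrangements of 3 among 24, two-sided p = 0.644, BH P = 0.644 over the 4 library measures tested). In a multidimensional-scaling plot of the 24 libraries, the first dimension held 33.97% of the variance. The 3 CycNoP4 libraries lay at -0.80, -0.80 and -1.16 on it. The 6 libraries numbered 75, 76, 83, 87, 89 and 91, 3 of them CycW5 and 3 NoCycW5, lay apart at 1.32 to 3.35, while the remaining 15 of the other groups spanned -1.13 to -0.17. All 3 CycNoP4 libraries were thus on the side of the majority, as were those 15. The mean position was -0.92 in CycNoP4 and 0.13 in the others, a difference that did not pass the test (exact permutation test, p = 0.194, BH P = 0.407). The distances among the 3 CycNoP4 libraries were 2.63 to 2.99 on the log2 scale, and those between CycNoP4 and other libraries had a median of 3.02 and a range of 2.11 to 5.61, so the 3 did not form a cluster of their own.

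**Figure D1:**
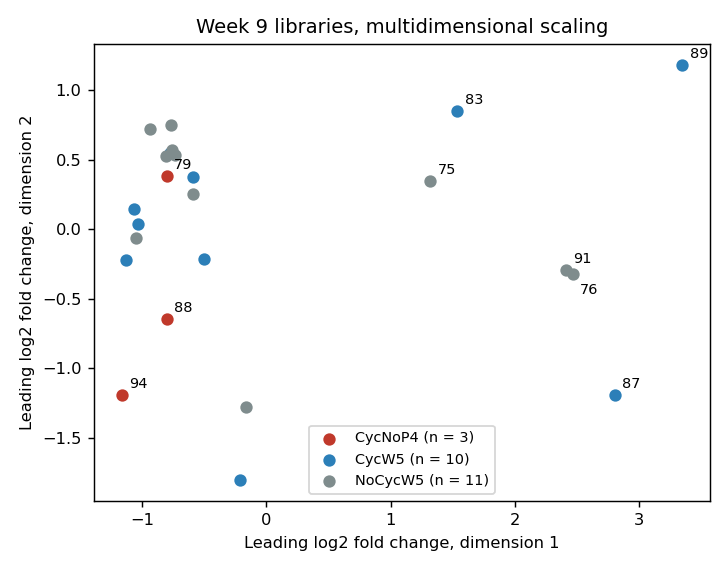
Week 9 libraries by multidimensional scaling of the 500 genes that differed most within each pair, with both axes in leading log2 fold change and one point per library, coloured by group. Numbers mark the 3 CycNoP4 libraries, all below 0 on the first dimension, and the 6 libraries of the other groups above 1.

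Across all genes, no week 9 difference between CycNoP4 and the other cows passed the test. The edgeR quasi-likelihood test called 0 of 15771 genes tested (percent called, 0) at a Benjamini-Hochberg adjusted P (BH P) of 0.05 or less, and the smallest BH P was 0.850. At an unadjusted P under 0.05 there were 591 genes (3.75%), 296 higher and 295 lower in CycNoP4. By limma-voom, 0 genes were called without or with library quality weights, and DESeq2's Wald test called 4. The same test called 0 genes between CycNoP4 and CycW5 (684 at an unadjusted P under 0.05, 4.34%) and 0 between CycNoP4 and NoCycW5 (665, 4.22%), comparisons that share the CycNoP4 libraries. By DESeq2 these counts were 1 and 8, and by limma-voom 0 and 0. Between CycW5 and NoCycW5 at week 9 the edgeR test called 1 gene (0.00634%), and 876 genes (5.55%) had an unadjusted P under 0.05.

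The size of difference that 3 libraries could exclude varied by gene. Levels are given in CPM, counts per 1e6 counted reads after TMM scaling. The standard error of the log2 fold change had a median of 0.22, and the unadjusted 95% interval lay within a 2-fold difference either way for 10753 of the 15771 genes (68.2%). Of the 14216 genes with a mean of at least 1 CPM, 10583 (74.4%) had such an interval. For the other genes, which include OXTR and most of the hormone-responsive and inflammatory genes below, the interval reached beyond a 2-fold difference in at least one direction. Without the 6 libraries that stood apart, the count of called genes was again 0 (722 at an unadjusted P under 0.05).

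Hormone receptors were measured first, because the labels define CycNoP4 by P4. OXTR, which encodes the oxytocin receptor, was at 3.41, 10.02 and 1.58 CPM in libraries 79, 88 and 94. Among the other 21 libraries it had a lowest value of 2.64, a median of 8.001 and a highest value of 178 CPM. No CycNoP4 library was among those with high OXTR, and 9 of the 21 others exceeded all 3 of them, yet the ranges overlapped. The log2 fold change was -2.98 (95% interval -6.14 to 0.19; P = 0.064, BH P = 0.865). It was -3.99 without library 88 and -1.86 without the 6 libraries that stood apart. In those 6 libraries OXTR had a median of 81.3 CPM, against 5.51 CPM in the remaining 15 of the other groups. ESR1, the gene of oestrogen receptor alpha, was at 61.0, 81.9 and 72.2 CPM in CycNoP4 and at 28.9 to 148 CPM with a median of 66.5 in the others, so the CycNoP4 values lay in the middle of the range. Its log2 fold change was -0.10 (95% interval -0.74 to 0.54), which excludes a 2-fold difference. Of the 3 receptor genes given here, ESR2 being the other, 2 were below 0 and 1 above, with a median log2 fold change of -0.10 against -0.02 over all genes tested. The receptor median was -0.021 without library 79 and -0.21 without library 88, and without the 6 libraries that stood apart all 3 genes were below 0 with a median of -0.19.

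Of genes known to be high in the P4-exposed endometrium, HPGD, MEP1B and DGAT2 lay within the range of the other cows in the CycNoP4 libraries. HPGD, whose product breaks down prostaglandins, was at 991.8, 423.8 and 644.5 CPM, against 16.97 to 1032 CPM with a median of 590.1 in the other libraries. MEP1B, a secreted and membrane metalloprotease gene, was at 711.2, 232.5 and 146.1 CPM, against 2.61 to 721.3 with a median of 328.7. DGAT2, which catalyses the last step of triglyceride synthesis, was at 147.0, 79.3 and 106.5 CPM, against 2.16 to 246.4 with a median of 60.2. For all 3 genes the CycNoP4 values lay within the range of the others, and 6, 6 and 12 of the 21 other libraries, respectively, were below the lowest CycNoP4 library. The log2 fold changes were 0.33 (95% interval -0.99 to 1.66) for HPGD, 0.08 (-2.01 to 2.16) for MEP1B and 0.67 (-0.85 to 2.19) for DGAT2. Without library 79 they were -0.018, -0.85 and 0.43, and without the 6 libraries that stood apart 0.071, -0.27 and 0.28. The Wnt inhibitor gene DKK1 was at 71.2, 38.1 and 58.0 CPM, against a median of 37.1 in the others. IGFBP1, which encodes an insulin-like growth factor binding protein, split the CycNoP4 libraries, with 137 and 52.8 CPM in 79 and 88 and 0.342 CPM in 94. The glucose transporter gene SLC5A1 was likewise lowest in library 94, at 50.04, 31.9 and 7.33 CPM. LPL, the lipoprotein lipase gene, had the smallest P of the list at 11.1, 35.5 and 14.2 CPM against a median of 10.03, with a log2 fold change of 0.49 (P = 0.349) that became -0.20 without library 88. Over the 8 luteal phase genes, 5 were above 0 and 3 below, with a median log2 fold change of 0.20, and 0 were called. The 3 below 0 were IGFBP1, SLC5A1 and MSTN. When each CycNoP4 library was left out, their log2 fold changes were -1.95 to -0.13, -1.31 to -0.26 and -0.72 to -0.20. Without the 6 libraries that stood apart they were -1.14, -1.05 and -0.41. Without the 6 libraries that stood apart the median was -0.10, without library 79 it was -0.37, without library 88 0.054 and without library 94 0.37, and by limma-voom it was 0.61.

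**Figure D2:**
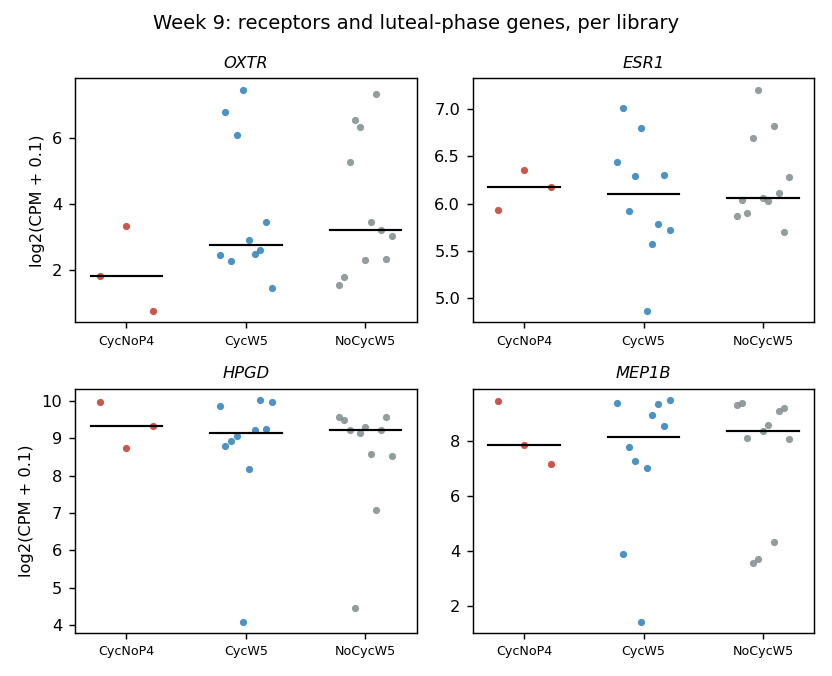
OXTR, ESR1, HPGD and MEP1B at week 9, on a scale of log2(CPM + 0.1), with one point per library and a black line at the group median. The CycNoP4 points lie among the bulk of the other libraries for ESR1, HPGD and MEP1B, and for OXTR none of them exceeds 10.02 CPM, while 9 of the 21 others do.

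Since no gene was called, 10 genes with a symbol are given as values, 4 higher and 6 lower, from those with the smallest unadjusted P in each direction. They were picked for that P, so their intervals are not evidence of a difference. All 10 had a BH P of 0.865.

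Library 94 set the values of one pair of genes on the higher side. ASGR2, a subunit of the asialoglycoprotein receptor, was at 5.46, 3.07 and 104 CPM, against 2.45 to 24.3 with a median of 7.01 in the others, and only library 94 was above that range. Its log2 fold change of 2.34 (SE 0.54; P = 0.000238) became -0.80 without library 94. MALSU1, an assembly factor of the mitochondrial ribosome, was at 29.7, 35.7 and 78.3 CPM against 15.3 to 43.6 with a median of 25.98, and its log2 fold change fell from 0.82 (P = 0.00177) to 0.27 without library 94.

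The other pair on the higher side did not rest on one library. ITGA10, a collagen-binding integrin subunit, was at 43.05, 45.0 and 52.9 CPM, against 13.0 to 47.9 with a median of 24.6, and all 3 libraries were above 19 of the 21 others. The log2 fold change was 0.88 (95% interval 0.36 to 1.40; P = 0.00192), and 0.79 to 0.95 when each CycNoP4 library was left out. DNAJC16, a DnaJ-family co-chaperone, was at 98.5, 123 and 119 CPM, against 63.8 to 121.7 with a median of 79.5, and 18 of the 21 others lay below all 3. The log2 fold change was 0.45 (95% interval 0.16 to 0.75; P = 0.00396).

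On the lower side, the genes with the smallest P were highly variable in the other libraries. AGR2, a protein disulphide isomerase of mucus-secreting epithelia, was at 16.5, 8.85 and 4.84 CPM, against 13.9 to 289.9 with a median of 33.5, and 19 of the 21 other libraries exceeded all 3. The log2 fold change was -2.66 (95% interval -4.73 to -0.59; P = 0.0140), and -1.59 without the 6 libraries that stood apart, in which AGR2 had a median of 126 CPM. CHST4, a carbohydrate sulphotransferase of the epithelium, was at 0.307, 0 and 0.0311 CPM, against 0.0941 to 14.9 with a median of 0.763, a level at which the CycNoP4 libraries held few reads. EYA2, a transcriptional coactivator, was at 3.82, 0.646 and 1.40 CPM against 2.20 to 29.7 with a median of 4.64, so only libraries 88 and 94 lay below the others. Its log2 fold change of -2.11 (P = 0.0188) was -3.02 without library 79 and -1.13 without the 6 libraries that stood apart.

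ABL2, a non-receptor tyrosine kinase gene, was at 2.08, 1.62 and 1.30 CPM against a median of 4.19, with 17 of 21 other libraries above all 3 (log2 fold change -1.23; P = 0.0183). TMEM213, a transmembrane protein gene, was at 13.6, 7.03 and 6.18 CPM against a median of 21.2 (log2 fold change -1.90; P = 0.0196). CACNA1E, a subunit of voltage-gated calcium channels, was at 0.205, 0.0808 and 0.155 CPM against a median of 0.620 (log2 fold change -2.89, and -2.23 without the 6 libraries that stood apart; P = 0.0217). In these 3 genes at least 1 of the other libraries was below the lowest CycNoP4 library.

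**Figure D3:**
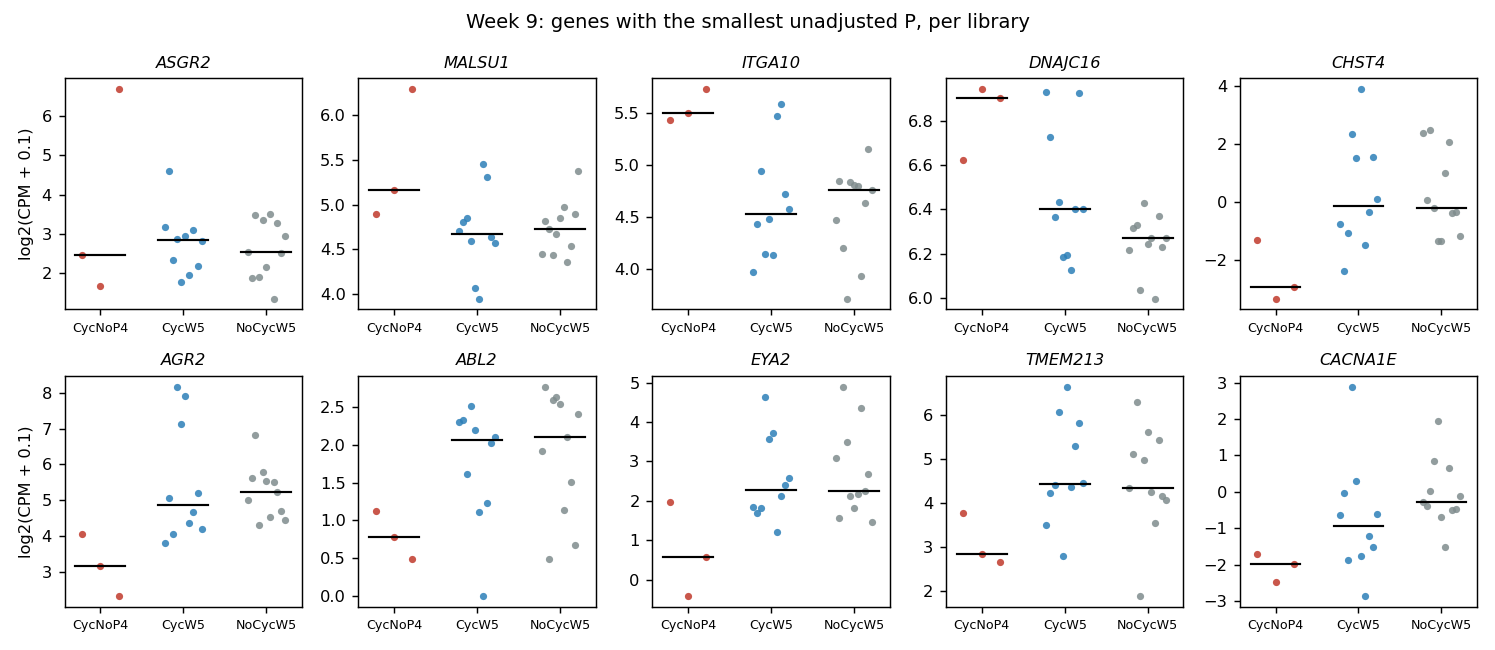
The 10 genes with a symbol given for their small unadjusted P at week 9, on a scale of log2(CPM + 0.1), one point per library with a black line at the group median. For ASGR2 library 94 alone, at 104 CPM, lies above the others, whereas for AGR2 and CHST4 all 3 CycNoP4 libraries lie low.

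The 3 CycNoP4 libraries lay above all 21 others for 2 genes (0.0127% of those tested) and below all of them for 9 (0.0571%), none of the 11 with a symbol here. The clearest of these was ENSBTAG00000047591, singled out after its values were seen, at 3.14, 3.19 and 3.38 CPM against 4.402 to 7.46 (log2 fold change -0.80; P = 0.000147). The gene with the smallest P of all, ENSBTAG00000020573, was at 100.5, 191.7 and 287.8 CPM against 44.1 to 123.6 with a median of 82.6, so only library 79 overlapped the others (log2 fold change 1.12, 95% interval 0.65 to 1.60; P = 5.39e-05). Both were among the 4 genes that DESeq2 called, with BH P of 0.0334 and 0.0484. The others called by DESeq2 were ENSBTAG00000020269, at 11.8, 4.85 and 2.11 CPM against 9.00 to 31.8, and ENSBTAG00000022715, at 5.42, 2.83 and 0.683 CPM against 2.44 to 2483, where the other libraries spread over 3 orders of magnitude. When library 79 was left out, ENSBTAG00000020573 was also called by edgeR (log2 fold change 1.44, BH P = 0.0477), whereas without library 94 its log2 fold change was 0.72.

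The summed level of the listed inflammatory genes lay within the range of the other cows in the CycNoP4 libraries, and no listed gene was called. Of 10 listed genes with a symbol, 9 were tested and 0 called. Without the 6 libraries that stood apart only 5 of these genes passed the filter on low counts, with a median log2 fold change of -0.56, so the other 4 were tested only through libraries in which they were high and nothing is read from the signs of all 9. Summed over the list, the level was 22.1, 31.9 and 55.5 CPM in CycNoP4, against 18.6 to 1165 with a median of 53.6. Libraries 79 and 88 were below that median and library 94 just above it. PTX3, 1 of those 5 genes, had a log2 fold change of 0.081 without library 79 and -0.95 without library 94. IL6, a cytokine gene, was at 0.136, 0.283 and 0 CPM against a median of 0.333 and a highest value of 10.03. CCL2, a monocyte chemoattractant gene, was at 3.17, 7.11 and 2.95 against a median of 8.01 and a highest value of 264.7. TNIP3, an inhibitor of NF-kappa B signalling, had the smallest P of the list (P = 0.0526). It is 1 of the 4 genes tested only through libraries in which they were high, so nothing is read from that P. TNIP3 was at 0.0341, 0 and 0.0311 CPM. Its median was 1.91 CPM in the 6 libraries that stood apart and 0.0744 in the remaining 15, a level of few reads. CHI3L1, a chitinase-like glycoprotein gene and the most abundant of the list, was at 3.89, 2.22 and 0.466 CPM against a median of 2.80 and a highest value of 848. MMP9, the one neutrophil marker with a symbol, was at 1.81, 0.0404 and 0.0311 CPM against a median of 0.849 and a highest value of 280.9, the latter in library 89. The part of neutrophils in these values was not tested, since the markers that define them carry no symbol here.

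Prostaglandin genes did not move together. PTGES, which makes prostaglandin E2, had the smallest P at 1.77, 1.94 and 1.40 CPM against 1.52 to 26.5 (log2 fold change -1.47, 95% interval -3.23 to 0.29; P = 0.0976). Without the 6 libraries that stood apart, in which its median was 8.52 CPM against 2.04 in the remaining 15, the log2 fold change was -0.45. PTGS2, the inducible cyclooxygenase, was at 220.4, 86.3 and 23.5 CPM against 20.3 to 1668 with a median of 167.6. Its 3 values ran from near the lower end of that range to above the median. ACSL4, which activates arachidonic acid, was at 100.6, 78.8 and 475.4 CPM, with library 94 again apart from the pair. Of the 7 genes, 4 were above 0 and 3 below, the median log2 fold change was 0.07, and 0 were called. The median turned to -0.31 without library 88, to -0.27 without library 94 and to -0.018 without library 79, and was 0.29 by limma-voom.

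Cholesterol and nutrient transporter genes gave no call. Of 16 cholesterol synthesis and uptake genes, 14 were above 0, with a median log2 fold change of 0.20, and for 12 of the 16 the 95% interval excluded a 2-fold difference. Their summed level was 2156, 1467 and 2830 CPM in libraries 79, 88 and 94, against 628 to 3115 with a median of 1878 in the others. The count rested on library 94, without which 3 of the 16 were above 0 and the median was -0.07. Without the 6 libraries that stood apart 7 were above 0. TM7SF2, a sterol reductase gene of the pathway, had the smallest P at 63.1, 43.1 and 105 CPM against a median of 53.0 (log2 fold change 0.34; P = 0.275), and -0.06 without library 94. Of 13 nutrient transporter genes, 9 were above 0 with a median of 0.21, and 7 with a median of 0.12 without the 6 libraries that stood apart. The smallest P was that of the amino acid transporter family gene SLC7A4 at 39.7, 25.8 and 48.9 CPM against a median of 23.6 (P = 0.118).

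Growth factor and Wnt genes, extracellular matrix genes and the cell cycle gene MCM7 gave no call either. AXIN2, a feedback inhibitor of Wnt signalling, was at 28.8, 65.0 and 46.8 CPM against a median of 27.2 (log2 fold change 0.53, 95% interval -0.05 to 1.12; P = 0.0736), and the log2 fold change was 0.21 without library 88. The 11 genes of that list had a median log2 fold change of -0.08, with 5 above 0 and 6 below, and the median was -0.32 without library 88 and 0.12 without the 6 libraries that stood apart. All 7 matrix genes tested were below 0 with a median of -0.38, but 3 of the 7 were above 0 without the 6 libraries that stood apart. MMP9 led that list too (log2 fold change -4.89, 95% interval -10.7 to 0.90; P = 0.0942), with -2.84 without library 89, -8.87 without library 79 and -2.02 without the 6 libraries that stood apart. FN1, the fibronectin gene, was at 562.5, 936 and 753.3 CPM against a median of 809.7. MCM7, a subunit of the replicative helicase, was at 102, 91.4 and 80.2 CPM against a median of 92.7 (log2 fold change -0.08, 95% interval -0.39 to 0.22).

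Ribosomal protein genes had narrow values and small differences. All 45 with a symbol or description here were below 0, with a log2 fold change between -0.30 and -0.05 and a median of -0.17, against -0.02 over all genes tested. All 45 intervals excluded a 2-fold difference. Their summed level was 22608, 24400 and 23947 CPM, against 22561 to 32468 with a median of 25283, 0 were called and 2 had an unadjusted P under 0.05 (background 3.75%). Without the 6 libraries that stood apart 43 were below 0 and the median was -0.08. The one with the smallest P, described as 40S ribosomal protein S25 (ENSBTAG00000018987), was at 62.8, 63.2 and 67.3 CPM against 67.5 to 80.7. RPL14, the leading member of 13 genes that led other comparisons of these libraries, was at 725.7, 771.6 and 766.6 CPM against a median of 804.2 (P = 0.111), and 6 of the 12 tested members of that list were above 0. The mitochondrially encoded genes CYTB and ND3 were both below 0, CYTB at 1940, 1869 and 2059 CPM against 1529 to 5088 (log2 fold change -0.51, 95% interval -1.13 to 0.10, and -0.25 without the 6 libraries that stood apart, whose median was 4024 CPM). HSPB1, the one heat-shock gene with a symbol, was at 215.6, 297.2 and 257.5 CPM against a median of 255.1.

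Markers of the tissue were present in every week 9 library. The epithelial genes EPCAM, KRT8, CLDN4 and MUC1 summed to 1055, 650.0 and 542.4 CPM in CycNoP4, against 316.9 to 1279 with a median of 955.8 in the others. Libraries 88 and 94 were below that median and library 79 above it. CLDN4, a tight junction gene, had the smallest P of these (log2 fold change -0.51, 95% interval -1.91 to 0.89; P = 0.460), and it gave -1.06 without library 79, -0.18 without library 94 and -0.80 without the 6 libraries that stood apart. PDGFRA, a stromal marker, was at 802.1, 495.7 and 957.7 CPM against a median of 579.0, and the endothelial genes CDH5, VWF and ROBO4 summed to 394.3, 405.1 and 311.0 CPM against a median of 374.7, ROBO4 having the smallest P (log2 fold change 0.24, and 0.15 without library 88; P = 0.332). The part of tissue makeup in the values above was not tested.

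The comparison with week 5 asked whether the CycNoP4 cows differed from the others at week 9 in another way than at week 5. At week 5 the 4 CycNoP4 libraries differed from the 22 others in 1460 of 15738 genes (9.28%), 923 higher (5.86%) and 537 lower (3.41%), and 4420 genes (28.1%) had an unadjusted P under 0.05. That count depended on single libraries, from 50 without library 51 and 285 without library 56 to 664 without library 58 and 3601 without library 64. Of the 923 higher genes 914 were tested at week 9, 0 were called there, and their median log2 fold change went from 0.66 at week 5 to -0.16. Of the 537 lower genes all were tested and 0 called, and their median went from -0.65 to 0.12. At week 9, 176 of the 914 (19.3%) were above 0 and 128 of the 537 (23.8%) below 0, so most lay on the other side of 0 from week 5, whereas 46% of all genes tested at week 9 were above 0. Without the 6 week 9 libraries that stood apart these shares were 36% and 33%. The week 5 and week 9 contrasts share no library, but they share cows. The paper counts 4 cows cycling without P4 influence at week 5 and 10 CycW5 cows, as many as these groups had libraries at week 5. Their week 9 libraries therefore come from the same cows, although the labels do not say which.

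**Figure D4:**
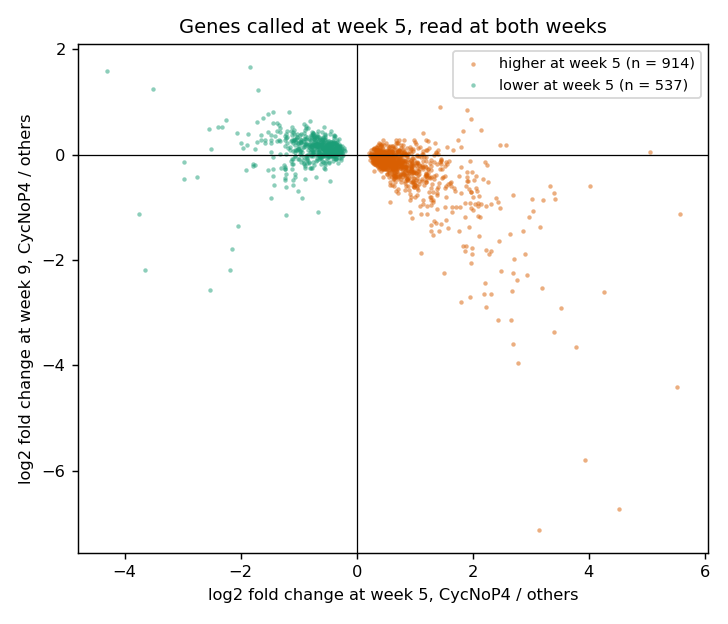
Log2 fold change of CycNoP4 against the other libraries at week 5 (horizontal) and week 9 (vertical) for the genes called at week 5 and tested at week 9, one point per gene. Most of the 914 genes higher at week 5 lie below 0 at week 9, and most of the 537 lower genes above 0.

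The change in the difference was tested directly across all 50 libraries, as the week 9 difference minus the week 5 difference. It was called for 252 of 16120 genes (1.56%), 119 with a positive change (0.738%) and 133 with a negative one (0.825%). Of the 252, 222 were also called at week 5 and 0 at week 9, and 224 had the larger difference at week 5. The 119 had a median log2 difference of -0.67 at week 5 and 0.33 at week 9, and the 133 medians of 0.90 and -0.37. No cow term was fitted, so this test treats biopsies that share a cow as independent. The count of 252 was also not stable to single libraries. It was 0 without CycNoP4 library 88, 94 or 51, 13 without library 56, 81 without library 79, 208 without library 58 and 2526 without library 64.

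Among the genes with a positive change, those with the smallest BH P were low in CycNoP4 at week 5 and not at week 9. TOX, a nuclear HMG-box protein gene, was at 5.58, 5.12, 10.2 and 8.48 CPM in the CycNoP4 libraries of week 5, against 9.87 to 40.8 in the other cows. At week 9 it was at 41.9, 44.7 and 58.7 CPM against 8.91 to 58.6, and so had moved from the low end of the range to its upper part. The change was 2.32 on the log2 scale (SE 0.50, BH P = 0.0259), from -1.71 (BH P = 0.00324) to 0.62. RND2, a GTPase gene, was at 2.51, 2.01, 2.38 and 4.49 CPM at week 5 against 4.09 to 15.4, and at 12.7, 12.2 and 25.6 CPM at week 9 against 4.44 to 24.6. Its change was 1.94 (SE 0.44, BH P = 0.0259).

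PLCD4, a phospholipase C gene, was at 7.33 to 19.2 CPM in CycNoP4 at week 5, against a median of 28.5 in the others, and at 41.2, 54.5 and 95.2 CPM at week 9 against a median of 36.2. The change was 2.25 (SE 0.50, BH P = 0.0259). MALSU1 was at 15.02 to 16.9 CPM in CycNoP4 at week 5, below 19 of the 22 others, and changed by 1.30 (SE 0.30, BH P = 0.0259), or by 0.73 (BH P = 0.221) without library 94.

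Among the genes with a negative change, CACNA1E was at 3.68, 10.4, 1.89 and 1.69 CPM in CycNoP4 at week 5, above 17 of the 22 others in every library, and at 0.0808 to 0.205 CPM at week 9. The change was -5.11 (SE 1.26, BH P = 0.0334), and -4.25 (BH P = 0.0986) without library 56. For SDC4, a cell-surface heparan sulphate proteoglycan gene, library 51 stood alone at week 5 with 390.2 CPM, the other CycNoP4 libraries being at 73.4, 57.8 and 62.5 CPM against 28.9 to 67.5 in the others. At week 9 it was at 56.2, 50.4 and 37.1 CPM against a median of 59.3, a change of -1.88 (SE 0.46, BH P = 0.0334), which was -0.70 (BH P = 0.316) without library 51. SGK1, a serum- and glucocorticoid-regulated kinase gene, likewise had 570.2 CPM in library 51 and 69.4 to 101.7 CPM in the other 3. At week 9 its values of 94.2, 90.7 and 90.2 CPM were close together and below 19 of the 21 others, a change of -1.94 (SE 0.48, BH P = 0.0334), which was -0.72 (BH P = 0.321) without library 51. SFN, which encodes 14-3-3 sigma, was at 9.54 and 3.14 CPM in libraries 51 and 56 at week 5 and at 0.264 and 0.574 CPM in the others of the group, and at 1.26, 0.808 and 0.435 CPM at week 9 (change -3.06, SE 0.77, BH P = 0.0365). Without library 51 the SFN change was -1.72 (BH P = 0.235).

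**Figure D5:**
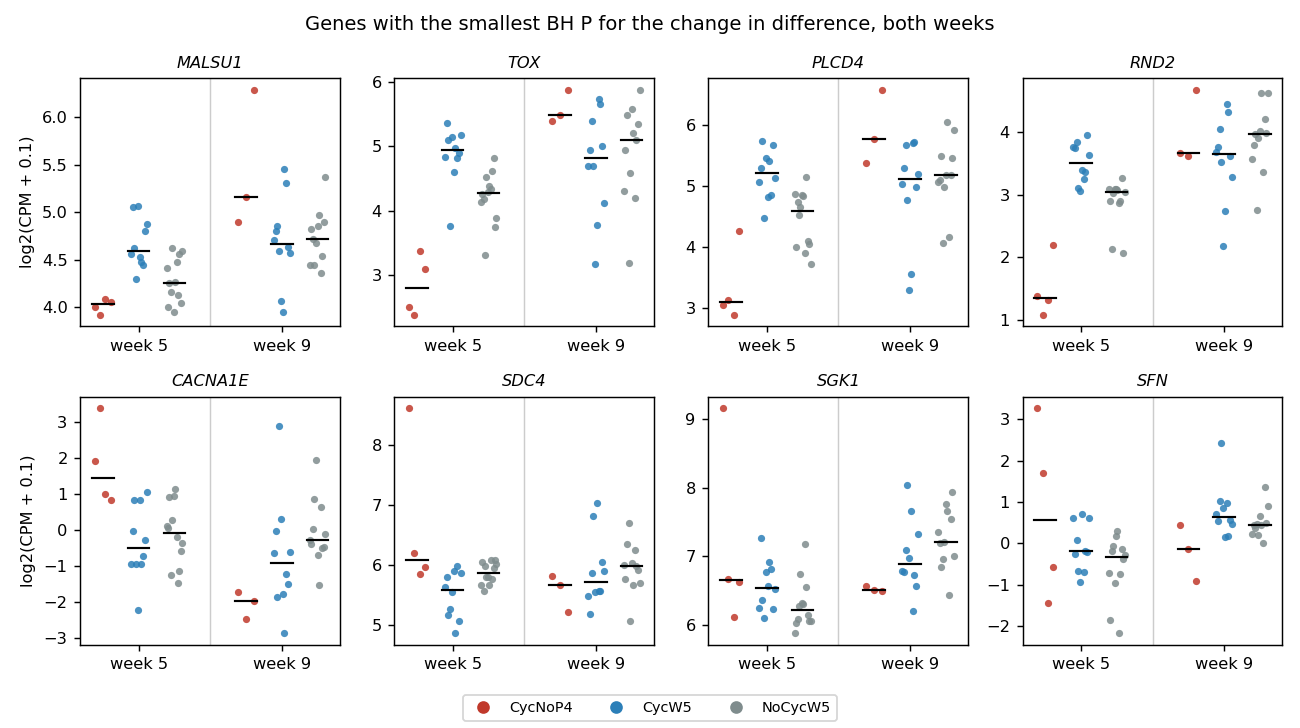
The 8 genes with the smallest BH P for the change between weeks, at week 5 and week 9, on a scale of log2(CPM + 0.1), one point per library with a black line at each group's median. In TOX and RND2 the CycNoP4 points lie below most others at week 5, and at week 9 those of libraries 79 and 88 lie among the others and that of library 94 just above them, whereas for SDC4 and SGK1 the high week 5 value is that of library 51 alone.

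OXTR and the luteal phase genes were read at both weeks as well. OXTR was at 246.9, 276.6, 171.7 and 119.9 CPM in CycNoP4 at week 5, above 16 of the 22 others in every library, against 3.41, 10.02 and 1.58 CPM at week 9, and its change in difference missed the threshold (-4.19, SE 1.47, BH P = 0.0880). DKK1, called lower at week 5 (BH P = 0.0374), was there below all 22 others at 1.94 to 3.58 CPM, and changed by 2.48 (SE 0.96, BH P = 0.117). The 8 luteal phase genes had a median log2 fold change of -1.77 at week 5 and of 0.20 at week 9. Of the 8, 1 was called at week 5, where 9.28% of all genes tested were called. The change between weeks was called for 0 of them, against 1.56% of all genes tested, so neither count is read as a result about these genes.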

How the data were processed

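Endometrial mRNA libraries were sequenced by the authors as stranded single-end reads, trimmed and aligned with HISAT2 to UMD3.1. The study's methods name FeatureCounts for counting on Ensembl genes, whereas the submitters' processing notes name StringTie, so which tool made the deposited counts is not settled. Whether counting used strand is not given in the sources used here, so overlapping and antisense genes cannot be told apart. The deposited table holds raw counts for 18830 genes in 50 libraries, 3 to 12 per group and week.

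Analysis used R 4.3.3. The main test was edgeR 4.0.16 (TMM, filterByExpr, robust quasi-likelihood) on the 24 week 9 libraries, 3 against 21, with genes called at a BH P of 0.05 or less. A fit of 3 group means separated CycW5 and NoCycW5, and 4 means over 50 libraries gave the change between weeks. DESeq2 1.42.0 and limma 3.58.1 were alternatives. CPM values use TMM factors over the 50 libraries. The tests were tested on simulated data. Library pairs were checked for repeats over the 276 week 9 pairs, and none differed by as little as sampling noise. P-values measure the spread between these biopsies.

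The compared libraries, gene lists and tests were chosen with earlier results of these data known. Genes named by rule were the 6 genes with a symbol and the smallest P in each direction (none being called), ESR1 and OXTR, the member of each list with the smallest P, and the 4 genes in each direction with the smallest BH P for the change between weeks. Further list members, such as HPGD, MEP1B and ACSL4, are given as examples. PGR is not analysed here, and 2 of the genes with the smallest P and 1 listed receptor are not reported here. Symbols came from the study's gene tables, which name 2321 of the 18830 identifiers, all of them genes the study called, so lists are partial. Ribosomal protein genes without a symbol were taken by description. Lists of ciliated, smooth muscle, T, natural killer, B, macrophage, mast and erythroid cells, interferon-stimulated genes and MHC class II had 0 genes with a symbol. No cow term was fitted, since the labels link no library to a cow. In the column order of the table, libraries of week 5 are often followed by one of week 9 with the same status, but that order was not used to pair them.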

Additional observations from a re-analysis of the deposited data

Results flagged for a closer look

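The change in the CycNoP4 difference between week 5 and week 9 was tested by an interaction and called for 252 genes. The 8 genes named for it changed by 2.32 (TOX), 2.25 (PLCD4), 1.94 (RND2) and 1.30 (MALSU1), and by -5.11 (CACNA1E), -1.88 (SDC4), -1.94 (SGK1) and -3.06 (SFN), on the log2 scale. Of 7 fits that each left out 1 CycNoP4 library, TOX, PLCD4, RND2 and MALSU1 were called in 3 and the other 4 genes in 2. By limma-voom TOX, PLCD4 and MALSU1 were called, whereas RND2 (BH P = 0.0519), CACNA1E (0.0621), SDC4 (0.0832), SGK1 (0.0833) and SFN (0.112) were not, and DESeq2 called each of the 8 but SDC4, for which it gave no adjusted P.

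Single libraries lay far from the rest of their group by Dixon's criterion, which chance meets in about 1 of 20 groups if values are normally distributed. The CPM values were taken without a log transform and the sets share libraries, so that rate need not hold here. Of 70 sets of values looked at, 11 met the criterion, each through a high library. This count is not read as an excess over chance. Among the 4 CycNoP4 libraries of week 5, library 51 was high for SDC4 (390.2 CPM, next 73.4) and SGK1 (570.2 CPM, next 101.7), and library 64 for PLCD4 (19.2 CPM, next 8.68). Among the 10 CycW5 libraries of week 9, library 72 was high for ASGR2 (24.3 CPM, next 8.98), the gene for which CycNoP4 library 94 was also alone. Library 89 was high for CHST4 (14.9 CPM, next 5.04), MMP9 (280.9 CPM, next 26.4) and PTGES (26.5 CPM, next 12.3). Library 83 was high for EYA2 (24.8 CPM, next 13.2), CACNA1E (7.30 CPM, next 1.14) and SFN (5.24 CPM, next 1.95), and library 87 for AXIN2 (68.7 CPM, next 46.3).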

How the results depend on the processing

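For CycNoP4 against the other week 9 libraries, 0 genes were called with DESeq2's size factors in edgeR, limma-voom without and with quality weights, at least 1 CPM in 12 libraries, 3 group means, all 50 libraries, and no robust option. DESeq2's Wald test called 4 genes. Without a filter 3 were called, each with no read in at least 1 CycNoP4 library. Leaving out each of the 24 libraries called 0 to 1 genes. Against CycW5 DESeq2 called 1 gene and against NoCycW5 8, and leaving out each CycNoP4 library called 0 to 0 in both. For the change between weeks, DESeq2 called 1144 genes, limma-voom 129, 6 group means 395, and the fit without the 6 libraries that stood apart, chosen after seeing the data, 149. Of the 252 genes, 244, 119, 252 and 139 were called in these fits, and leaving out single CycNoP4 libraries called 0 to 2526. At week 5, DESeq2 called 2226 genes, limma-voom 1004, and leaving out single CycNoP4 libraries 50 to 3601, alternatives also added after seeing the data. The log2 fold change of ESR1 was 0.12 with quality weights. Leaving out single libraries turned the sign of 7 named genes at week 9, whose ranges were -0.80 to 2.88 (ASGR2), -0.21 to 0.014 (ESR1), -0.20 to 0.79 (LPL), -0.16 to 0.0015 (MCM7), -0.064 to 0.60 (TM7SF2), -0.15 to 0.093 (HSPB1) and -0.21 to 0.41 (RND2). Summed list levels moved by less than the spread between CycNoP4 libraries without TMM and with DESeq2's size factors.

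No paired analysis was possible because the labels give no number that links libraries to cows. The week 9 libraries each held at least 21592867 counted reads. Depth limits the genes under about 1 CPM such as CHST4, TNIP3 and CACNA1E, where a CycNoP4 library held few reads.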
